A study of Saccharomyces cerevisiae with 4 samples.

Results

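The genes described here encode the 6 cell wall stress sensors of the budding yeast plasma membrane: SLG1 (also WSC1, YOR008C), WSC2 (YNL283C), WSC3 (YOL105C), WSC4 (YHL028W), MID2 (YLR332W) and MTL1 (YGR023W). They were chosen by name, through the gene symbol that the array annotation gives each spot, from 5539 genes with a symbol. All 6 were found, each with 2 spots. The series compares RNA of Saccharomyces cerevisiae cells with and without Congo red, a chitin-binding dye that disturbs wall assembly, on 4 arrays with 2 channels. Both channels of every array held RNA of one strain, BY4741 lacking SLT2, so the treated cells and their controls are without the terminal kinase of the pathway that these sensors start. BY4741 is a MATa laboratory haploid that also carries deletions of HIS3, LEU2, MET17 and URA3. Cultures grew in the rich medium YEPD at 24 °C and were split. One part received Congo red at 30 µg/ml, the other stayed untreated, and both were collected at 4 h.

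The sensors are single-pass membrane proteins with a short tail in the cytoplasm and a long, serine- and threonine-rich outer part that is heavily mannosylated and reaches into the wall. SLG1, WSC2, WSC3 and WSC4 belong to the WSC family, whose proteins share a cysteine-rich domain at the outer end. MID2 and MTL1 form a second, related pair without that domain. When the wall is stretched or damaged, the tails, best studied for Slg1 and Mid2, recruit the exchange factor Rom2, which loads the GTPase Rho1. Rho1 then activates the kinase Pkc1 and a cascade of Bck1, Mkk1 and Mkk2 that ends in Slt2 and the transcription factor Rlm1. Slg1 and Mid2 are known as the main sensors of vegetative cells, and Mid2 is the one most often tied to the response to Congo red. In a strain without Slt2 the signal can still pass to Rho1 and Pkc1 but not to Rlm1 by this route.

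Values are log2 ratios of treated over untreated RNA. Each array was centred on its median over all spots, and arrays 2 and 4, which carried the treated RNA in channel 1, were multiplied by -1, so that all 4 arrays point the same way. Which channel is the numerator is not stated in the sources used here. The direction, higher with Congo red for a positive value, is therefore likely only, and if the numerator is channel 1 every sign below reverses together. Had the authors already turned each array before deposit, multiplying by -1 would undo that, and the means would follow the channels in place of the treatment. The labels do not say whether the 4 arrays come from separate cultures or repeat the same RNA, so the p-values cover array-to-array spread alone, and that spread may be technical. In such bulk RNA, a change in every cell and a larger change in some cells cannot be told apart. Usable ratios made up 84.1% to 90.9% of the 12800 spots per array, and over the arrays 81.1% to 91.9% of genes' spot pairs lay within 1 log2 unit of each other. Spot brightness was not analysed here, so whether SLT2 or the deleted markers of the strain gave any signal cannot be read from these ratios. Precision is limited by the number of arrays.

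None of the 6 sensor genes passed the test of a change with Congo red. SLG1 came nearest, at a mean of 0.81 ± 0.42 (SD, n = 4), a 1.75-fold higher ratio. Its values lay above 0 on 4 of 4 arrays, as for 20.4% of all genes measured on each array. WSC2 stood at 0.04 ± 0.32 (n = 4). MTL1 had a larger mean, 1.37 ± 1.91 (n = 4), with a spread larger than the mean itself. WSC4 and MID2 had values on 3 arrays and WSC3 on 2, and they were not part of the test, which needed a value on each array. That test, limma with Benjamini-Hochberg adjustment over 4481 genes, called 0 of the 3 sensor genes it covered and 0% of all genes at an adjusted p under 0.05. At an unadjusted p under 0.05, SLG1 alone of the 3 was included, beside 27.5% of all genes (1234 of 4481).

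The spots of the sensor genes were incompletely measured. Of 48 possible values (12 spots on 4 arrays) 33 were ratios, 14 were blank, and 1 spot of MID2 on array 3 held the top value of the table, a linear ratio of 100000, which was taken as a placeholder and set to missing. WSC2 was the only sensor gene with all 8 of its values, as had 3632 of the 5510 genes with 2 spots. SLG1, WSC4 and MTL1 had 6 values each. MID2 had 4 and WSC3 had 3, and only 5.72% and 2.94% of 2-spot genes had fewer values than these. Why a spot was left blank is not stated in the sources used here. Some deposited ratios of WSC3, MID2 and MTL1 were round (0.250, 25.0, 4.50 and 21.0), as a ratio of small whole numbers would be. So were some of WSC4 (0.5 and 1) and WSC2 (2.25). Whether those spots lay close to background was not tested, since the values hold no brightness, and the sizes of their ratios are given with that limit.

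**Figure D1:**
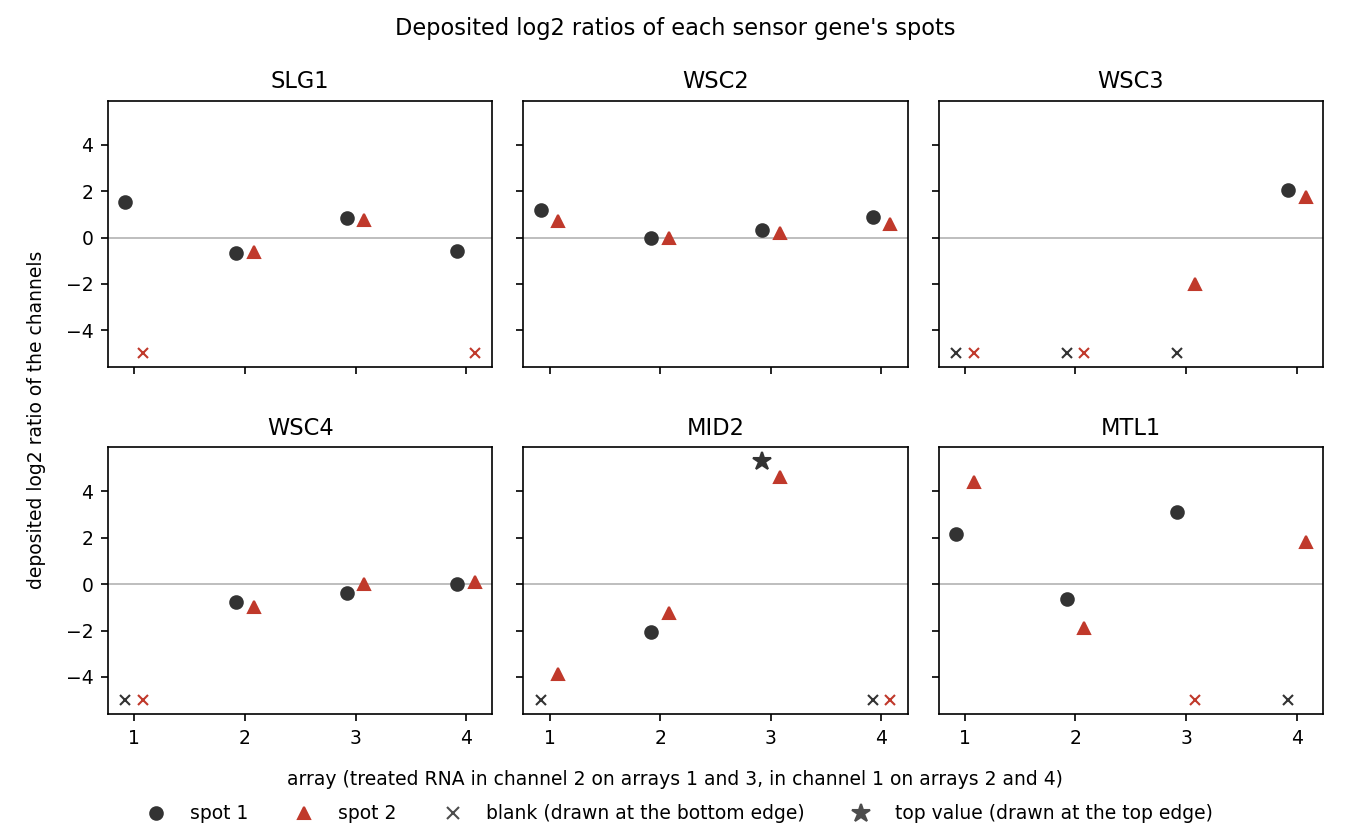
Deposited log2 ratio of the channels (vertical axis, before centring and turning) for both spots of each sensor gene on arrays 1 to 4 (horizontal axis), with blank spots drawn as crosses at the bottom edge and the top value as a star at the top edge. SLG1 changes sign between the 2 channel orders, WSC2 runs from -0.02 to 1.17, and MTL1 and MID2 have spots far from 0 and from each other.

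SLG1 encodes the founding member of the WSC family and a main upstream activator of the Rho1 switch. As deposited, its linear ratios of the channels were 2.92 on array 1 from the 1 spot measured there, 0.636 and 0.657 on array 2, 1.79 and 1.70 on array 3, and 0.669 on array 4, again from 1 spot. The ratio was above 1 where the treated RNA lay in channel 2 and below 1 where it lay in channel 1, so the value followed the treated channel on all 4 arrays. After centring and turning, SLG1 stood at 1.11, 0.38, 0.51 and 1.22 on arrays 1 to 4.

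All 4 values of SLG1 lay above 0, as was the case for 20.4% of all genes tested (912 of 4481). Its mean of 0.81 had a 95% interval from 0.29 to 1.32, or 1.22-fold to 2.50-fold, with an unadjusted p of 0.0103 and an adjusted p of 0.0956 (limma). It therefore did not pass over all genes, and neither did any other gene, the smallest adjusted p of the table being 0.0522. The exact two-sided sign-flip permutation test of its 4 values gave p = 0.125, the smallest that 4 arrays can give. The higher pair of values, on arrays 1 and 4, came from the arrays where only 1 of the spots was measured (mean 1.17, n = 2), and the lower pair from those where both were (0.44, n = 2). The spot measured on all 4 arrays gave 0.82 ± 0.41 by itself.

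The mean of SLG1 was alike in both channel orders, though the arrays within each order differed more. It was 0.81 on arrays 1 and 3 (values 1.11 and 0.51) and 0.80 on arrays 2 and 4 (values 0.38 and 1.22). The closeness of the means thus rests on 2 unlike values in each order. The channel order effect, fitted as a second coefficient of size (arrays 1 and 3 minus arrays 2 and 4) over 2, was 0.0049, and only 1.67% of genes had a smaller channel order effect. Taken without turning, the same values cancel to a mean of 0.0049, so the size of the SLG1 ratio rests on the orientation chosen for the arrays. Its SD of 0.42 was near the middle of the table, where the median SD was 0.38 and 55.7% of genes had a smaller one.

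WSC2 encodes a close relative of Slg1 with a lesser role in vegetative cells. Its values were 0.51, -0.23, -0.03 and -0.09 on arrays 1 to 4, above 0 on array 1 and below 0 on the other arrays. Its paired spots lay within 0.47 log2 units on array 1, 0.0029 on array 2, 0.11 on array 3 and 0.28 on array 4, and it alone of the 6 genes had both spots on every array. The mean of 0.04 had a 95% interval from -0.40 to 0.47 (0.760-fold to 1.39-fold, adjusted p = 0.89, limma). Changes beyond these bounds lie outside the interval, and smaller ones in either direction do not. Without array 1 the mean was -0.12.

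Set beside WSC2 on the same array, SLG1 was higher by 0.61, 0.61, 0.54 and 1.31 log2 units on arrays 1 to 4 (0.77 ± 0.36, n = 4). The pair was chosen after the values were seen. An exact two-sided sign-flip permutation test gave p = 0.125, which is again the smallest possible with 4 arrays.

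WSC3 encodes a further WSC protein, closest to Wsc2. It had ratios on arrays 3 and 4 only, and both of its spots were blank on arrays 1 and 2. One spot on array 3 gave a linear ratio of 0.250 and the paired spots on array 4 gave 4.17 and 3.39, before centring and turning. The turned values were -2.30 and -1.27, a mean of -1.78 ± 0.73 (n = 2), both below 0. When genes on at least 2 arrays were admitted, an addition made after seeing the data, the unadjusted p was 0.0257 and the adjusted p 0.15 (limma), with 0% of 5442 genes called and 26.6% at an unadjusted p under 0.05. Of these genes, 3.20% had a lower mean. The value thus rests on 3 spots.

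WSC4 encodes a WSC protein that has also been described at the endoplasmic reticulum. It was blank on array 1. Its linear channel ratios were 0.585 and 0.5 on array 2, 0.768 and 1.02 on array 3, and 1 and 1.06 on array 4. After centring and turning it gave 0.64, -0.47 and 0.60 on arrays 2, 3 and 4. These lay above 0 on the arrays with the treated RNA in channel 1 and below 0 on the array with it in channel 2. The value on array 4 came from centring on that array's deposited median of 0.64. The paired spots of WSC4 lay within 0.41 log2 units or less of each other on all 3 arrays. The mean was 0.25 ± 0.63 (n = 3). Among the 5171 genes on at least 3 arrays its adjusted p was 0.63 (limma, 95% interval from -0.62 to 1.13), and 0% of those genes were called. On the deposited scale, before turning, all 3 centred values were below 0, with a mean of -0.57. Without array 3, the mean of the turned values was 0.62.

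MID2 encodes the sensor outside the WSC family that is most often linked to Congo red and to mating pheromone. Its linear channel ratios were 0.068 on array 1, 0.237 and 0.421 on array 2, and 25.0 on array 3, beside the spot at the top value on that array. Both spots were blank on array 4. The turned values were -4.31, 1.41 and 4.35 on arrays 1, 2 and 3, so arrays 1 and 3, which share a channel order, lay at opposite ends.

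The mean of MID2, 0.48 ± 4.40 (n = 3), has no fixed direction. It was 2.88 without array 1 and -1.45 without array 3, and keeping the top value as a measured ratio made it 2.48. Its adjusted p among genes on at least 3 arrays was 0.89 (limma, 95% interval from -4.86 to 5.83), and 99.9% of those genes had a smaller SD.

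MTL1 encodes the relative of Mid2. Its linear channel ratios were 4.50 and 21.0 on array 1, 0.642 and 0.268 on array 2, 8.67 on array 3 from 1 spot, and 3.57 on array 4 from the other spot. The turned values were 2.85, 1.02, 2.82 and -1.19 on arrays 1 to 4. It stood above 0 on 3 of 4 arrays and below 0 on array 4.

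Where both spots of MTL1 were measured they differed by 2.22 log2 units on array 1 and 1.26 on array 2, more than 93.8% and 93.7% of spot pairs on those arrays. The mean of 1.37 had a 95% interval from -0.58 to 3.33 and an adjusted p of 0.29 (limma). An exact two-sided sign-flip permutation test gave p = 0.375. Its SD of 1.91 was larger than that of 96.3% of genes. The mean was 0.88 without array 1, 0.89 without array 3 and 2.23 without array 4, and none of these passed.

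MTL1 had a higher mean on the arrays with the treated RNA in channel 2, a difference that did not pass the test. Its mean was 2.83 on arrays 1 and 3 and -0.09 on arrays 2 and 4, a channel order effect of 1.46, larger than that of 99.2% of genes (unadjusted p = 0.0252, adjusted p = 0.87, limma). Over all genes, 0 passed for channel order after adjustment, and 182 of 4481 had an unadjusted p under 0.05. The corresponding effect of WSC2 was 0.20 (adjusted p = 0.87). The mean of MTL1, 1.37, and its channel order effect, 1.46, were of like size, and neither passed after adjustment. Array 3 was measured by spot 1 alone and array 4 by spot 2 alone. Between arrays 3 and 4, a difference between the spots and one between the channel orders therefore cannot be told apart. On arrays 1 and 2 both spots were measured. Spot 1 gave turned values of 1.74 on array 1, 0.39 on array 2 and 2.82 on array 3. Spot 2 gave 3.96 on array 1, 1.65 on array 2 and -1.19 on array 4. How far the spots bear on the channel order effect was not tested.

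**Figure D2:**
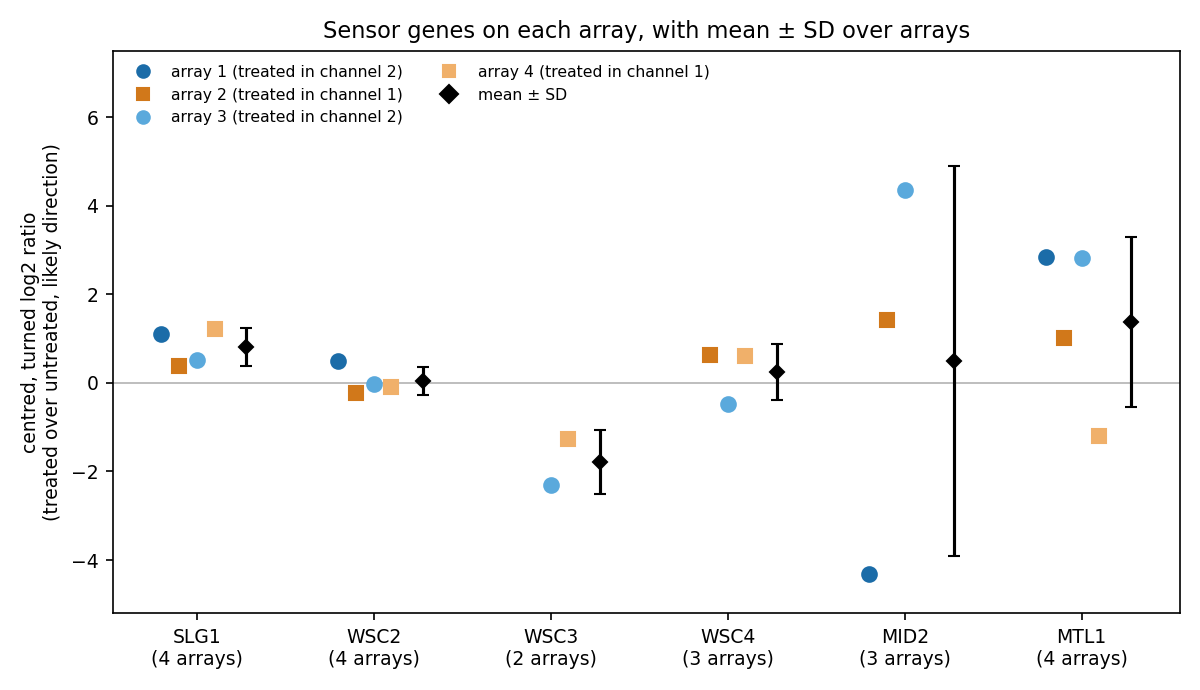
Centred and turned log2 ratio (vertical axis) of each sensor gene on each array, with circles for arrays that held the treated RNA in channel 2, squares for channel 1, and diamonds with bars for the mean ± SD over the arrays measured. All 4 values of SLG1 lie between 0.38 and 1.22, those of WSC2 straddle 0, and MID2 runs from -4.31 to 4.35.

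From the highest mean to the lowest, the sensor genes stood in the order MTL1, SLG1, MID2, WSC4, WSC2 and WSC3. The order depends on the orientation. With no array turned it was MTL1 (1.46), WSC2 (0.20), SLG1 (0.0049), MID2 (-0.46), WSC3 (-0.51) and WSC4 (-0.57). In the first 4 neighbouring pairs of the turned order the mean difference was smaller than its SD. Compared on the arrays both had, MTL1 exceeded SLG1 by 0.57 ± 2.11 (n = 4), SLG1 exceeded MID2 by 0.18 ± 4.75 (n = 3), MID2 exceeded WSC4 by 2.80 ± 2.86 (n = 2) and WSC4 exceeded WSC2 by 0.37 ± 0.71 (n = 3). WSC2 exceeded WSC3 by 1.72 ± 0.77 (n = 2). The smallest p of an exact two-sided sign-flip permutation test is 0.125 on 4 arrays, 0.25 on 3 and 0.5 on 2, so none of the 5 pairs could reach 0.05 and these tests (adjusted p from 0.83 to 1) separate none of them.

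The sensor genes measured on every array fall in different places of the distribution of all genes. SLG1 joined a mean above that of 89.3% of genes (43.0% with no array turned) with an ordinary spread, and ranked 483 of 4481 by p. WSC2 had an ordinary spread and a mean near 0, with only 6.11% of genes nearer to 0. MTL1 had a mean above that of 96.9% of genes (99.7% with no array turned) and one of the wider spreads.

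**Figure D3:**
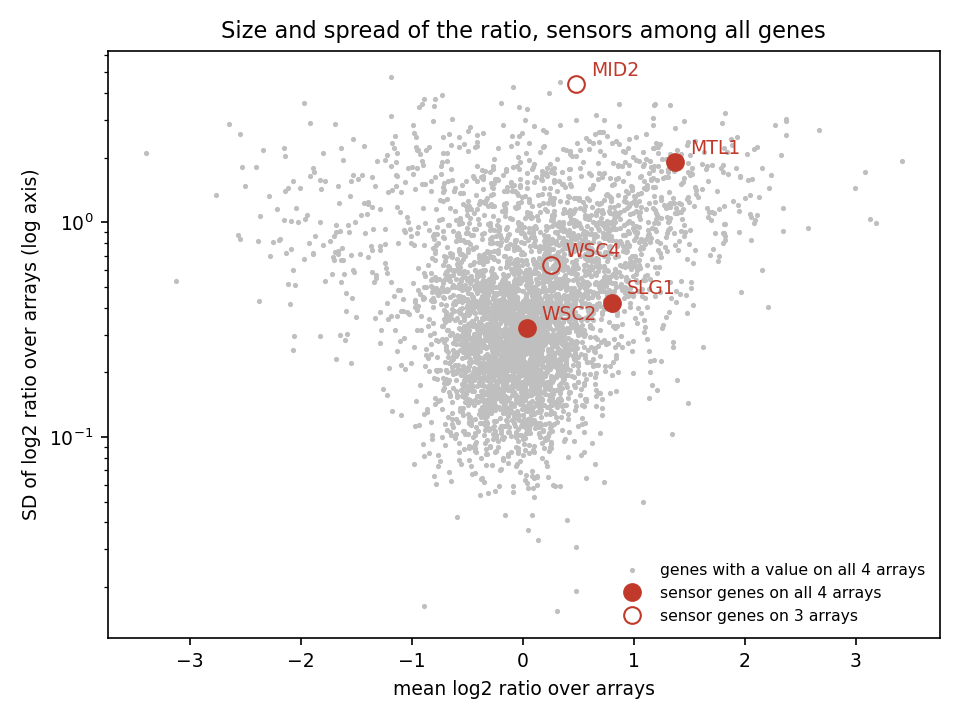
Mean log2 ratio (horizontal axis) against the SD over arrays (vertical axis, log scale) for the 4481 genes tested (grey) and the sensor genes (red, open circles for genes on 3 arrays). SLG1 has a mean of 0.81 with an SD near the median of 0.38, while MTL1 and MID2 lie at the upper edge of the spread.

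The genes most like each sensor gene in their 4 turned values were found by the root mean square difference over the 4 arrays, among the other 4480 genes. Nearest to SLG1 were PFF1 (difference 0.06 log2 units) and FRE1 (0.11), with means of 0.85 and 0.81, and 8 genes lay within 0.2. FRE1 encodes a plasma membrane reductase of iron and copper. Nearest to WSC2 were RAI1 (0.06), of nuclear RNA quality control, and PRK1 (0.06), a kinase of the actin cytoskeleton, and 150 genes lay within 0.2. The nearest to MTL1 were MSH4 (0.50) and YDL218W (0.56), and no gene (0 of 4480) lay within 0.2. MSH4 encodes a meiotic protein that is not expected in haploid cells in rich medium. These distances rest on 4 arrays of 1 comparison and describe shared values only.

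Genes of the pathway below the sensors, of sensor processing, of other membrane sensors and of the wall were read on the same arrays. Of these 47 genes, in lists drawn from textbook knowledge, 40 had values on all 4 arrays. None of the 40 passed limma's test over all genes, where 0% of all genes did. At an unadjusted p under 0.05 there were 4 higher and 2 lower, where 27.5% of all genes reached it, and the median of the 40 means was 0.03, beside 0.02 for all genes tested. In the duplicate-spot analysis, which keeps a gene's value only where at least 2 spots lie within 1 log2 unit, 2 of 29 genes rose (LRG1 and PIR3) and 1 fell (CIS3), where 5.31% of 2804 genes were called higher and 11.5% lower. That analysis was known from earlier work on these data to give calls. Of the sensor genes it covered WSC2 alone (adjusted p = 0.88, limma).

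Between the sensors and Pkc1 sits the Rho1 module, of which 7 of 8 genes were measured on all arrays (median 0.02). RHO1 itself gave 0.06, -0.05, -0.20 and -0.31 on arrays 1 to 4 (-0.12 ± 0.17). ROM2, the exchange factor that the tails of Slg1 and Mid2 recruit, gave -0.07, -0.15, 0.23 and 0.08 (0.02 ± 0.16), on both sides of 0. ROM1, its close relative, was below 0 on 4 of 4 arrays at -0.25 ± 0.17, as were 21.3% of all genes on 4 arrays. TUS1, a further exchange factor, stood at 0.12 ± 0.25. These 4 genes had adjusted p from 0.27 to 0.93 (limma).

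The GTPase-activating proteins, which switch Rho1 off, included the largest ratios of the module. LRG1 gave 1.45, 1.69, 1.45 and 1.36 (1.49 ± 0.14, adjusted p = 0.0522, limma), values closer together than those of SLG1. In the duplicate-spot analysis it rose, with an adjusted p of 0.00483 (limma). BAG7 stood at 0.77 ± 0.85 with 2.02 on array 3 and at most 0.53 on the others, and BEM2 at -0.05 ± 0.18. SAC7 was measured on arrays 3 and 4 only, at 5.77 and 6.02 (n = 2). Whether its spots lay close to background was not tested. With genes on at least 2 arrays admitted SAC7 had an adjusted p of 0.0884 (limma).

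In the kinase cascade below Rho1, the genes of the upper tiers had small positive means. PKC1 stood at 0.30 ± 0.17 and BCK1 at 0.36 ± 0.27, each above 0 on 4 of 4 arrays, as for 20.4% of all genes. Neither passed the test (adjusted p = 0.21 for both, limma). MKK1 and MKK2, the paired kinases of the next tier, were widely spread, at -0.04 ± 1.23 (n = 4) and 0.86 ± 2.05 (n = 3). KDX1, encoding a pseudokinase paralog of Slt2, ranged from -1.12 to 2.71. The spots of SLT2, which both channels lack by the strain's genotype, gave 1.48, -1.29, -1.51 and -1.14. Whether these spots cover the deleted part of the gene is not stated in the sources used here. Array by array, the values of SLG1, WSC2 and WSC4 lay inside the span from -1.51 to 1.48. Values of MID2 (-4.31 and 4.35), MTL1 (2.85 and 2.82) and WSC3 (-2.30) lay outside it. The upper end of that span is the array 1 value alone, which stood apart from the other values of SLT2.

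Among the transcription factors, SKN7, a response regulator that has been linked to Rho1, gave 2.57, 1.42, 1.88 and 1.99 (1.97 ± 0.47, adjusted p = 0.0534, limma). RLM1, the factor that Slt2 activates, had values on arrays 2, 3 and 4 of 1.56, 1.02 and 0.89 (1.16 ± 0.36, n = 3, adjusted p = 0.0935 among genes on at least 3 arrays, limma). SWI4 stood at 0.33 ± 0.17 and its partner SWI6 at 0.15 ± 0.19. Of the phosphatases that act on Slt2, PTP3 (0.66 ± 0.69) and SDP1 (-0.26 ± 0.22) had the largest means in size, and none of 4 had an unadjusted p under 0.05. The glucan synthase genes FKS1 and GSC2, whose products Rho1 regulates, stood at -0.18 ± 0.08 and -0.09 ± 1.04.

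Genes for proteins that modify, bind or internalise the sensors were followed as well. PMT1, PMT2 and PMT4, mannosyltransferases of the kind that glycosylate the sensors, stood at -0.20 ± 0.11, 0.03 ± 0.10 and -0.06 ± 0.22, with adjusted p of 0.32 to 0.88 (limma). ZEO1, which encodes a binding partner of Mid2, gave -0.34, -0.35, -0.14 and -0.79 (-0.40 ± 0.27, unadjusted p = 0.0483, adjusted p = 0.18, limma), below 0 on 4 of 4 arrays as for 21.3% of all genes. END3 and ACK1, each on 3 arrays, stood at 0.93 ± 0.19 and 0.80 ± 0.43. End3 works in endocytosis, the route by which Slg1 is recycled, and Ack1 acts upstream of Pkc1. Their adjusted p among genes on at least 3 arrays were 0.0935 and 0.15 (limma). SLA1, encoding an adaptor of the same endocytic route, stood at 0.26 ± 0.46.

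Sensors of other pathways in the same membrane were set beside them. Of 8 such genes 6 had values on all arrays, with a median of -0.08, and 1 of the 6 had an unadjusted p under 0.05, where 27.5% of all genes did. RIM21, a sensor of external alkalinity, gave 0.66, 0.49, 0.14 and 0.59 (0.47 ± 0.23, unadjusted p = 0.0223, adjusted p = 0.13, limma). SHO1, MSB2, HKR1 and OPY2, membrane proteins of the osmosensing branch that leads to Hog1, lay between -0.30 and 0.07. The channel gene CCH1 stood at -0.20 ± 0.40 and its partner MID1, on 3 arrays, at 0.09 ± 0.34. SLN1, the osmosensing histidine kinase, had values on 2 arrays, -3.33 and 2.67, which point in opposite directions.

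Wall genes that the pathway normally induces through Slt2 and Rlm1 had values in both directions. PIR3 gave 1.06, 1.28, 0.73 and 1.86 (1.23 ± 0.48, adjusted p = 0.0665, limma) and CIS3 gave -0.44, -1.19, -0.56 and -0.69 (-0.72 ± 0.33, adjusted p = 0.0902). PIR3 and CIS3 belong to the same family of wall proteins linked to glucan. In the duplicate-spot analysis PIR3 rose and CIS3 fell (adjusted p = 0.0111 and 0.0236, limma). The other 6 of these wall genes, among them HSP150 (0.29 ± 0.15) and SED1 (-0.41 ± 0.47), had no unadjusted p under 0.05, and the median of all 8 was 0.03. With 2 of 8 below that p, the list was near the 27.5% of all genes.

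**Figure D4:**
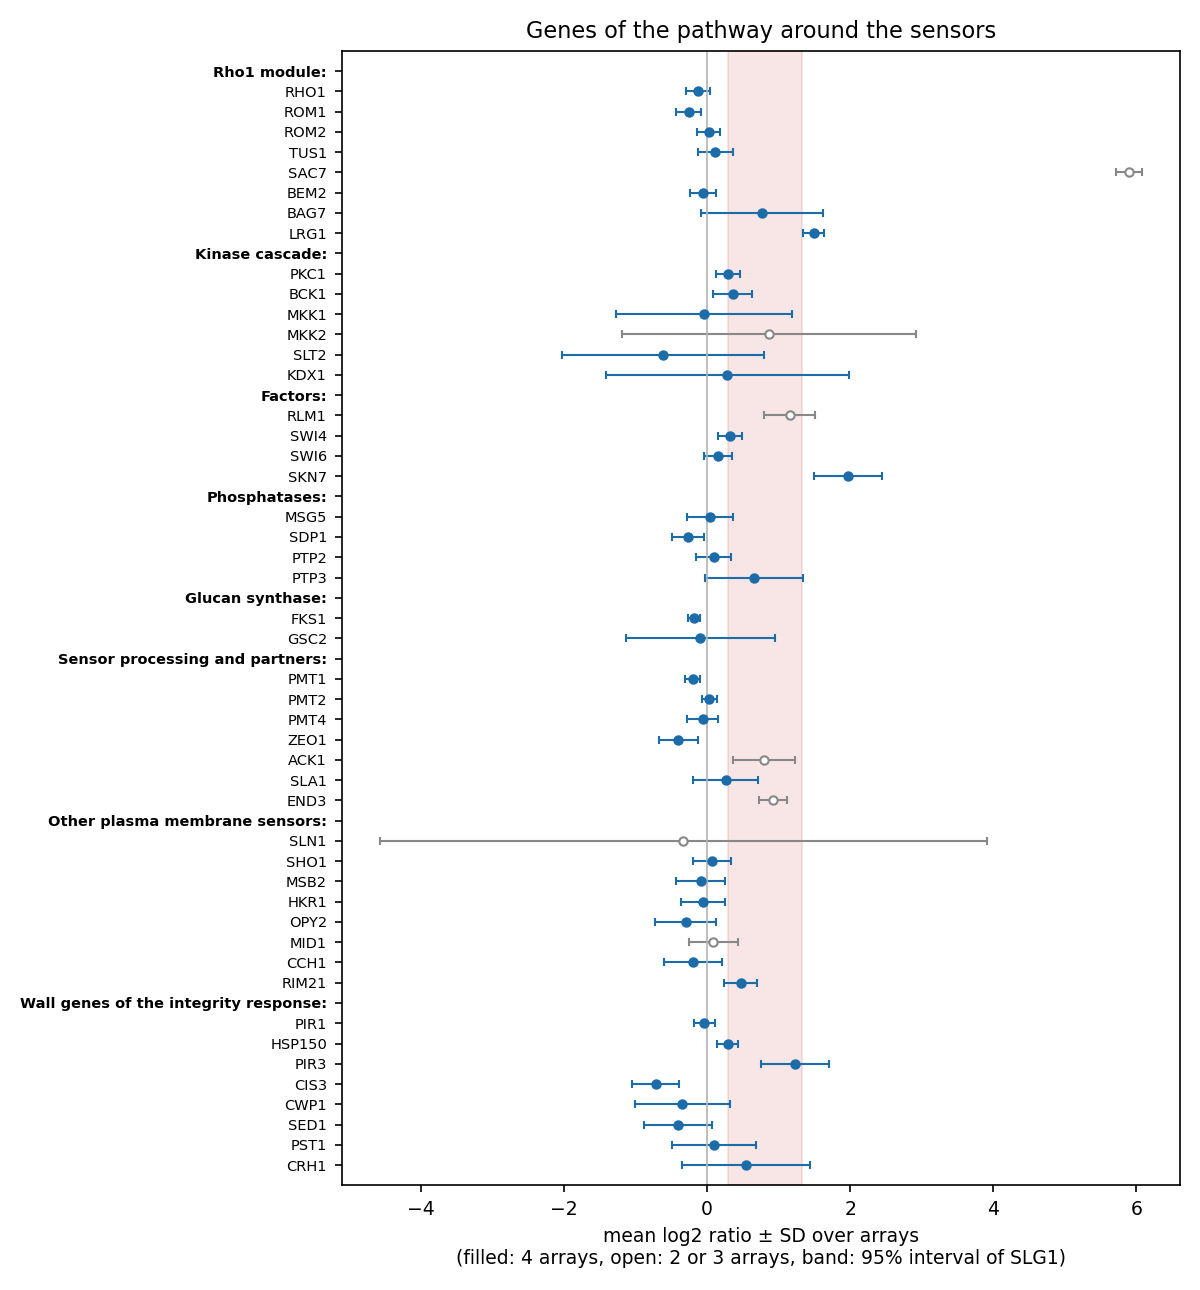
Mean log2 ratio ± SD over arrays (horizontal axis) of the 47 listed genes around the sensors, by role, with filled circles for genes on 4 arrays, open circles for genes on 2 or 3, and a band for the 95% interval of SLG1 (0.29 to 1.32). LRG1, SKN7 and SAC7 lie above the band, the means inside it include RLM1, PIR3, ACK1 and END3, and RHO1 and ROM2 lie near 0.

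The means of the sensor genes were recomputed under other settings. For SLG1, the 5 alternatives that turned the arrays, kept all 4 and could move the mean gave 0.62 to 0.89. Another 4 leave the mean as it is and change only the test, and leaving out 1 array cannot turn its sign, since all 4 values lie above 0. Its adjusted p over these alternatives ran from 0.0917 to 0.25 (limma), so none brought it past the threshold. The mean of MTL1 ran from 0.88 to 2.23 over its alternatives with turned arrays.

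**Figure D5:**
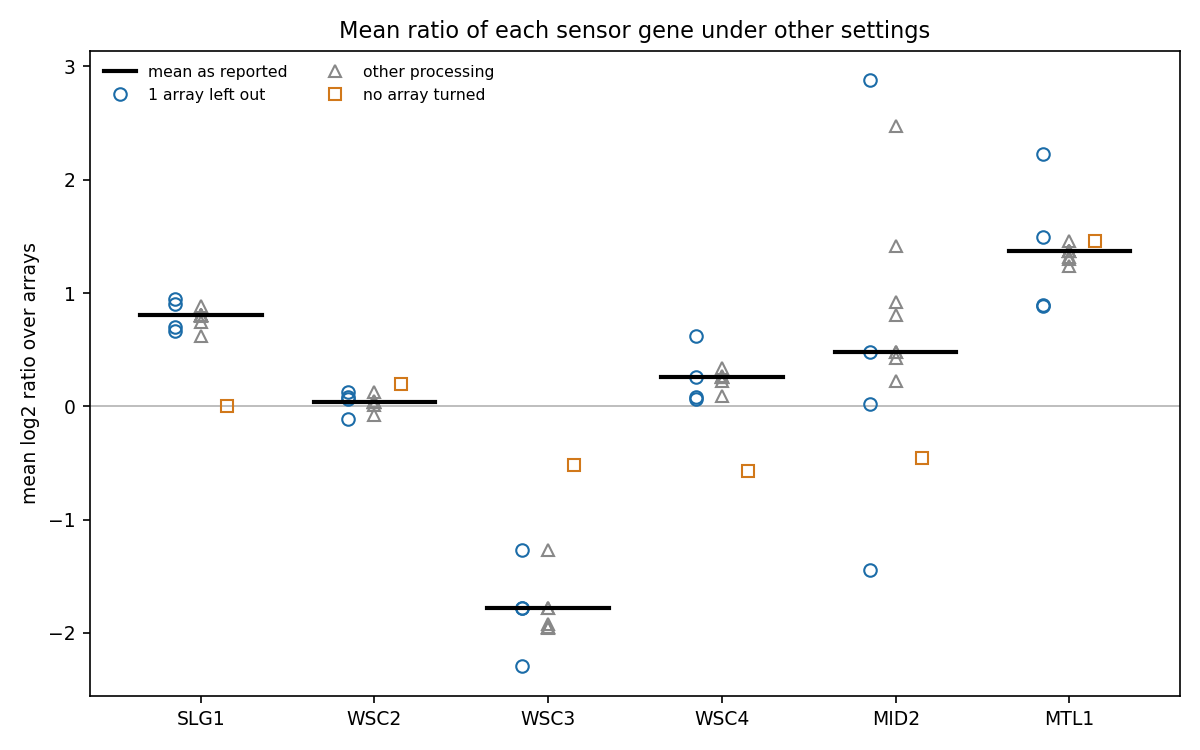
Mean log2 ratio over arrays (vertical axis) of each sensor gene as reported (black line), with 1 array left out (blue circles), under other processing (grey triangles) and with no array turned (orange squares). SLG1 stays between 0.62 and 0.95 except at 0.0049 with no array turned, while MID2 runs from -1.45 to 2.88.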

How the data were processed

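The authors deposited a log2 ratio of the channels for each of 12800 spots on each of 4 arrays. Scanner, filters, normalization, dyes and numerator channel are not stated in the sources used here. The deposited medians were 0.43, -0.25, 0.30 and 0.64 on arrays 1 to 4, so each array was centred on its median (threshold 0.1). The top log2 value, 16.61, was set to missing (31 to 68 spots an array). The correlation over spots was negative between arrays that differ in channel order (-0.38 to -0.19) and positive between those that share it (0.27 and 0.31), so arrays 2 and 4 were multiplied by -1. That orientation came from the same values, and p-values ignore this. The platform annotation gave 11138 spots 1 symbol. These are 5539 genes, 5534 of them matched to the reference gene table (R64). Its coordinates are not printed, since no source used here names the array's build. Spots of a gene were averaged. The 4481 genes with a value on 4 arrays entered limma 3.58.1 (lmFit and eBayes, R 4.3.3) as a test of the mean against 0, with Benjamini-Hochberg adjustment over all of them and a threshold of 0.05, after a check of the script on simulated data. Single values had exact sign-flip tests.

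The members, lists and the duplicate-spot analysis were chosen with earlier results of these data known. The text names the 6 sensor genes, the listed pathway genes with an unadjusted p under 0.05 or the largest means, others of the lists for their roles, and the 2 genes nearest in pattern to each sensor gene. Alternatives changed the centring, scaling, top value, spot filter, genes admitted, gene length (lowess, fraction 0.4), orientation, model and arrays. The mating type and deletion markers listed with the design cannot show presence or absence in ratios. Those on 4 arrays had means from -1.71 (STE3) to 0.59 (HIS3).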

Additional observations from a re-analysis of the deposited data

Results flagged for a closer look

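Among 43 sensor and pathway genes with a value on all 4 arrays, 3 had 1 array apart from the others by Dixon's criterion. Chance flags about 1 in 20 such groups. None is a sensor gene. SLT2, deleted in both channels, gave 1.48 on array 1 against values between -1.51 and -1.14 on the others. MSB2 gave 0.43 on array 4 against values between -0.30 and -0.23. PIR1 gave -0.26 on array 3 against values between 0.01 and 0.05.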

How the results depend on the processing

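Of all 4481 genes tested, 0 were called (1234 at an unadjusted p under 0.05, limma). The count became 93 with values not centred, 214 with runs of 400 spots centred, 472 of 2804 with the duplicate-spot filter and 25 of 4476 with the length trend removed. It stayed 0 in the other alternatives. No sensor gene was called in any alternative that tested it, but most tested SLG1, WSC2 and MTL1 alone, and the filter WSC2 alone. WSC3 was tested only with genes on at least 2 arrays admitted. WSC4 and MID2 were tested only with genes on at least 2 or 3 arrays, or without array 1 (WSC4) or array 4 (MID2). In the same order 2, 4, 3 and 1 listed pathway genes were called, LRG1 each time, and 0 in the others. With 1 array left out, 0 genes, sensor genes and listed genes were called (790 to 1247 genes at an unadjusted p under 0.05). Leaving out 1 array gave means of 0.67 to 0.95 for SLG1, -0.12 to 0.13 for WSC2, -2.30 to -1.27 for WSC3, 0.06 to 0.62 for WSC4, -1.45 to 2.88 for MID2 and 0.88 to 2.23 for MTL1.

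WSC2 turned negative without array 1 (-0.12) and with the length trend removed (-0.079). Its main mean, 0.04, was near 0. With no array turned, WSC3 stood at -0.51, WSC4 at -0.57, MID2 at -0.46, SLG1 at 0.0049, WSC2 at 0.20 and MTL1 at 1.46, and 70 genes had an unadjusted p under 0.05. The cause was not tested. Each array pairs treated with untreated RNA, so the tests of its ratio are paired already, and with 1 group of arrays there is no further replicate block to fit. Signal over background, which limits dim spots, was not analysed here.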
